A study of Rattus norvegicus with 2 samples.

Results

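The genes described here serve antigen presentation by class II molecules of the major histocompatibility complex (MHC). They are 8 rat genes, namely RT1-Da, RT1-Db1, RT1-Ba, RT1-Bb, RT1-DMa, RT1-DMb, Cd74 and Ciita, out of 26326 genes and other targets on the array. They were taken by name, as the non-control spots of both scanner files whose gene name was on that list, which gave 10 spots, each carrying a different probe and 7 of them well above background in both pools. The list was drawn up with the difference between the pools already known, so the differences below are a description and no test was made of them. A gene was measured where its spots were well above background in both pools, which held for 6 of the 8 genes.

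A class II molecule is a pair of chains, alpha and beta, that displays peptides from endocytosed protein to CD4 T cells. New pairs leave the endoplasmic reticulum bound to the invariant chain, are freed of it in endosomes and receive a peptide with the help of the DM molecule. In the brain these genes are known from border macrophages, dendritic cells and activated microglia rather than from neurons.

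RNA came from the whole hypothalamus of Wistar Kyoto (WKY) rats aged 9 weeks. The male group was a pool of RNA from 5 males and the female group a pool from 5 females, 100 ng from each rat. From each pool 150 ng was labelled with Cy3 and hybridised to 1 Agilent array, so that each group had 1 value per spot and the spread between rats was not measured. No treatment is named in the labels, and the rats had free access to food and water.

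The processed intensity had a 75th percentile of 3769 for the male pool and 2943 for the female pool, 84.9% and 84.2% of spots were well above background, and 0 were saturated. The level of a probe is log2 of its intensity minus log2 of that percentile, and every difference is female minus male on this scale. The tissue was checked on its markers, and all 15 listed genes of hypothalamic neurons were measured, from Kiss1, which encodes kisspeptin, at -4.51 for the male pool and -3.29 for the female pool from a spot in the bands described next, to Pmch, the precursor of melanin-concentrating hormone, at 6.32 and 6.42, with 5 of 10 spots in them. Over the 20655 genes measured in both pools the median difference was 0.00011 and its SD 0.23. Bands of slide rows, from 81 to 180, 401 to 460 and 521 to 540, were picked because repeated spots of a probe departed from one another most often there. By that choice, 5.45% of repeated spots in the bands were far from their probe's median, against 0.805% elsewhere. Values of named genes that rest on a spot in these bands are given as in a band.

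Of the classical class II chains, RT1-Da was 1.91-fold higher in the female pool, and the invariant chain gene Cd74 was 1.58-fold higher. RT1-Bb was 1.28-fold and RT1-Db1 1.21-fold higher, both under 1.5-fold. RT1-DMb and RT1-DMa were within 1.07-fold and 1.04-fold of equality. RT1-Ba and Ciita were in neither pool well above background. In such bulk tissue, fewer cells of a type and less RNA per cell cannot be told apart.

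The alpha chain of the rat counterpart of human HLA-DR is encoded by RT1-Da. Its probe, at chr20:4641104-4641163 of build rn4, is the one with the largest difference among the 8 genes, and it is printed here because that difference rests on this single spot.
RT1-Da probe: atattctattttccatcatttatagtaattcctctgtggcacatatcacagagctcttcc
The processed intensity of the RT1-Da spot was 45.9 for the male pool and 68.6 for the female pool. These were levels of -6.36 and -5.42, a difference of 0.94. Repeated spots of like level differed with a technical SD of 0.22, so the gap was larger than the scatter between spots. The scanner software's error of the difference was 0.26. The spot was nevertheless dim, with a raw mean signal of 93.2 over a local background of 42 in the male pool and 115 over 36 in the female pool. Among 2204 single-spot probes within 0.5 log2 of its mean level, 51, or 2.31%, were at least as much higher in the female pool. The spots around it on the slide had a median difference of 0.0030.

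The DR-like beta chain gene RT1-Db1 had 2 probes, of which the first lay at chr20:4672665-4672724 and the second at chr20:4671516-4671575.
RT1-Db1 first probe: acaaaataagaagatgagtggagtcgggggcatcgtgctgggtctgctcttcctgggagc
RT1-Db1 second probe: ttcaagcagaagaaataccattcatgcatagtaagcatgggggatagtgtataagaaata
The first probe gave 391 for the male pool and 392 for the female pool, levels of -3.27 and -2.91 and a difference of 0.36 (technical SD 0.087). The second gave 70.6 and 62.6, levels of -5.74 and -5.56 and a difference of 0.18 (technical SD 0.19), which is within the scatter of spots. Their mean was 0.27. The level is relative to the arrays' 75th percentiles, which were 0.36 log2 apart and higher on the male array. With the arrays centred on the spike-in controls instead, the RT1-Db1 difference was 0.20. Of 2422 single-spot probes of like level, 5.53% were at least as much higher in the female pool as the first probe, and of 2192 the share was 25.0% for the second.

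The beta chain of the DQ-like molecule is encoded by RT1-Bb, and its partner alpha chain by RT1-Ba. A second target, named LOC688090 in the files and described there as RT1.B-beta(1), lies outside the rule and was picked after its values were seen. Its probe is set beside that of RT1-Bb at chr20:4732187-4732246, with the run of 25 bases that both contain in capitals.
RT1-Bb probe: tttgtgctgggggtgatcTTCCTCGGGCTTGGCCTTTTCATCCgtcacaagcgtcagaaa
LOC688090 probe: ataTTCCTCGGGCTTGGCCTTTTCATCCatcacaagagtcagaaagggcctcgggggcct
Over the stretch where the 2 probes overlap, 42 of 45 bases matched, so their values cannot be taken as independent measurements. The RT1-Bb probe gave 233.2 for the male pool and 233.5 for the female pool, levels of -4.01 and -3.66 and a difference of 0.36 (technical SD 0.10). The difference was 0.29 with spike-in centring, 0.32 with the arrays centred on their medians and 0.31 after quantile normalization. At least as much higher were 5.46% of 2509 probes of like level. LOC688090 gave 229 and 257, a difference of 0.53 or 1.44-fold from a spot in a band (technical SD 0.10), reached by 2.27% of 2511 probes of like level. Another RT1-Bb probe, whose mapped span at chr20:4730533-4730583 covers 51 of its 60 bases, gave 3.48 and 3.04 and was in neither pool well above background. The RT1-Ba probe at chr20:4700973-4701032 gave 3.28 and 2.91, again not well above background. Among unflagged spots well above background in both pools, the lowest intensity was 15.5 on the male and 14.0 on the female array. Of RT1-Bb and RT1-Ba, the beta chain gene was thus measured and the alpha chain gene was not.

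**Figure D1:**
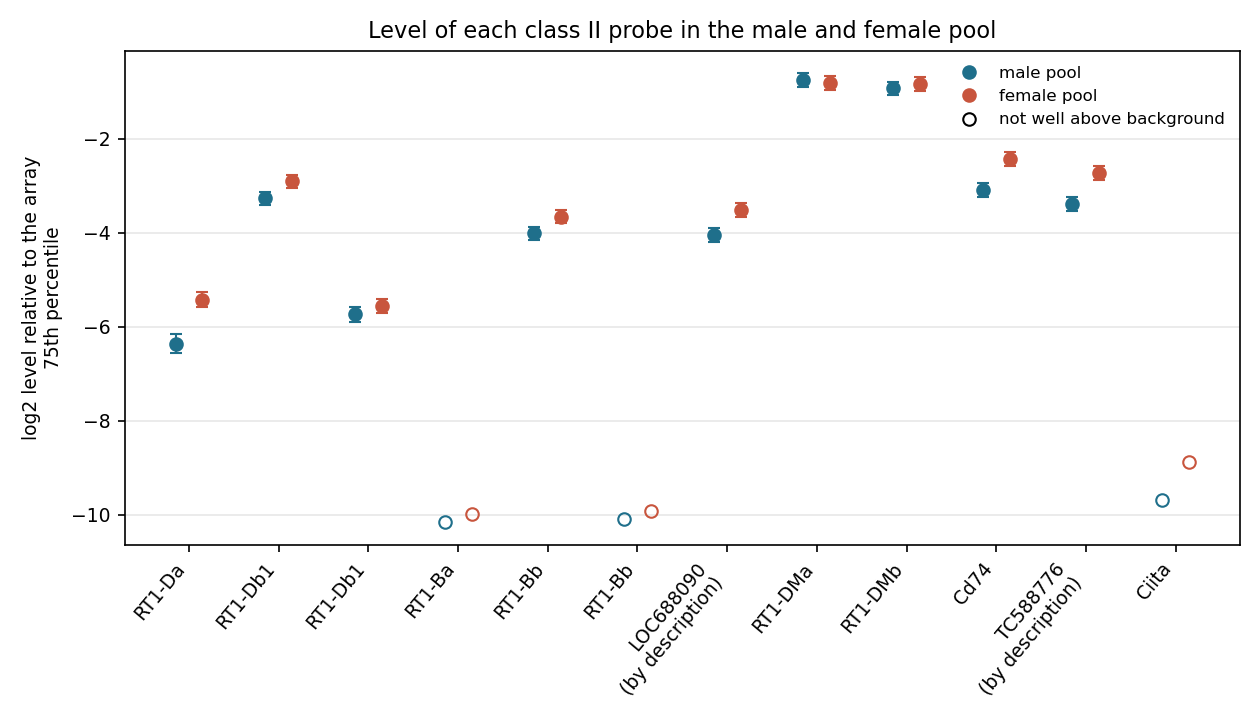
Level of each class II probe, as log2 intensity relative to the array's 75th percentile, in the male and the female pool. Each point is 1 spot on 1 array, bars are the scanner software's error of that spot, and open circles were not well above background; LOC688090 and TC588776 are probes named by their description only. Among the probes well above background, RT1-Da at 0.94 and the Cd74 and TC588776 probes at 0.66 have the largest differences, while RT1-DMa and RT1-DMb are nearly level.

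The DM molecule, which edits the peptides bound to class II molecules in endosomes, is encoded by RT1-DMa and RT1-DMb. RT1-DMa, at chr20:4844372-4844431, gave 2246 for the male pool and 1681 for the female pool, levels of -0.75 and -0.81 and a difference of -0.062 from a spot in a band. RT1-DMb, at chr20:4830313-4830372, gave 1987 and 1653, levels of -0.92 and -0.83 and a difference of 0.091. Their technical SDs were 0.060 and 0.061, so that the RT1-DMa difference was about as large as the scatter between spots and the RT1-DMb difference somewhat larger. Both differences were smaller in size than the scanner software's error of the difference, 0.20 for each. Among probes of like level, 31.5% of 2222 were at least as much lower as RT1-DMa and 21.8% of 2261 at least as much higher as RT1-DMb. RT1-DMa was the only measured gene of the 8 that was lower in the female pool.

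The invariant chain, which fills the groove of new class II molecules and guides them to endosomes, is encoded by Cd74. Its probe at chr18:56765468-56765527 has a neighbour at chr18:56764968-56765027, named TC588776 in the files and described there as CD74 antigen. The neighbour lies outside the rule and was picked after its values were seen. Both are printed because they are separate stretches that gave the same difference.
Cd74 probe: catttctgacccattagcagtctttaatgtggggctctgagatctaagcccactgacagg
TC588776 probe: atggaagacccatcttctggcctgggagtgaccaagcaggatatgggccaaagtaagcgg
The Cd74 spot gave 444 for the male pool and 547 for the female pool, levels of -3.08 and -2.43 and a difference of 0.66. The TC588776 spot gave 360 and 446, a difference of 0.66 or 1.59-fold. Technical SDs were 0.079 and 0.086, so both gaps were larger than the scatter between spots. The scanner software's errors of the 2 differences were 0.20 and 0.21. Neither spot lay in a band. Of 2404 single-spot probes of like level, 20, or 0.832%, were at least as much higher in the female pool as Cd74, and of 2436 the share was 0.985% for TC588776.

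The transactivator CIITA, the master switch of class II transcription, is encoded by Ciita. Its probe at chr10:5087176-5087235 gave 4.57 for the male pool and 6.29 for the female pool, with scanner errors of 3.43 and 3.06. It was in neither pool well above background, so no difference is given. Of the other class II chains, RT1-DOb, which encodes the beta chain of the DM inhibitor DO, gave 81.4 and 64.6, a difference of 0.023. RT1-DOa and RT1-Ha were in neither pool well above background, and no probe bore the names RT1-Db2 or RT1-Hb.

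Counted together, 5 of the 6 measured genes had a higher level in the female pool, against 50% of all measured genes, and their median difference was 0.32. RT1-Da and Cd74, 2 of the 6, exceeded the male pool by 1.5-fold or more in the female pool, against 1.55% of all measured genes. In the other direction 1.5-fold was reached by 0 of 6, against 0.842% of all measured genes. The list was chosen on this comparison, and nothing is read from these shares. Without RT1-Da, whose spot was dim, Cd74 alone passed 1.5-fold. Under a normexp background correction the RT1-Da difference became -1.95 and that of Cd74 -0.39, along with a shift of the median of all genes to -0.55; that fit took a background of -595 on the male array from 2 aberrant spots, and with those spots corrected the differences were 0.67 and 0.59.

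The probes also differed in base composition, which was not part of the choice of genes. Those of RT1-Da, RT1-Ba, Ciita, the second of RT1-Db1 and the dim one of RT1-Bb, at an intensity of 70.6 or less in the male pool, held 35% to 41.7% G and C. The other 5 probes, of RT1-Db1, RT1-Bb, RT1-DMa, RT1-DMb and Cd74, at 233.2 or more there, held 48.3% to 55%. The probes of other class II chains did not follow this split: RT1-DOa and RT1-Ha, in neither pool well above background, held 53.3% and 50%, and RT1-DOb, at 81.4, held 53.3%. Whether base composition bears on these intensities was not tested. Apart from the pair above, the probes of the 8 genes shared runs of at most 9 bases with one another.

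**Figure D2:**
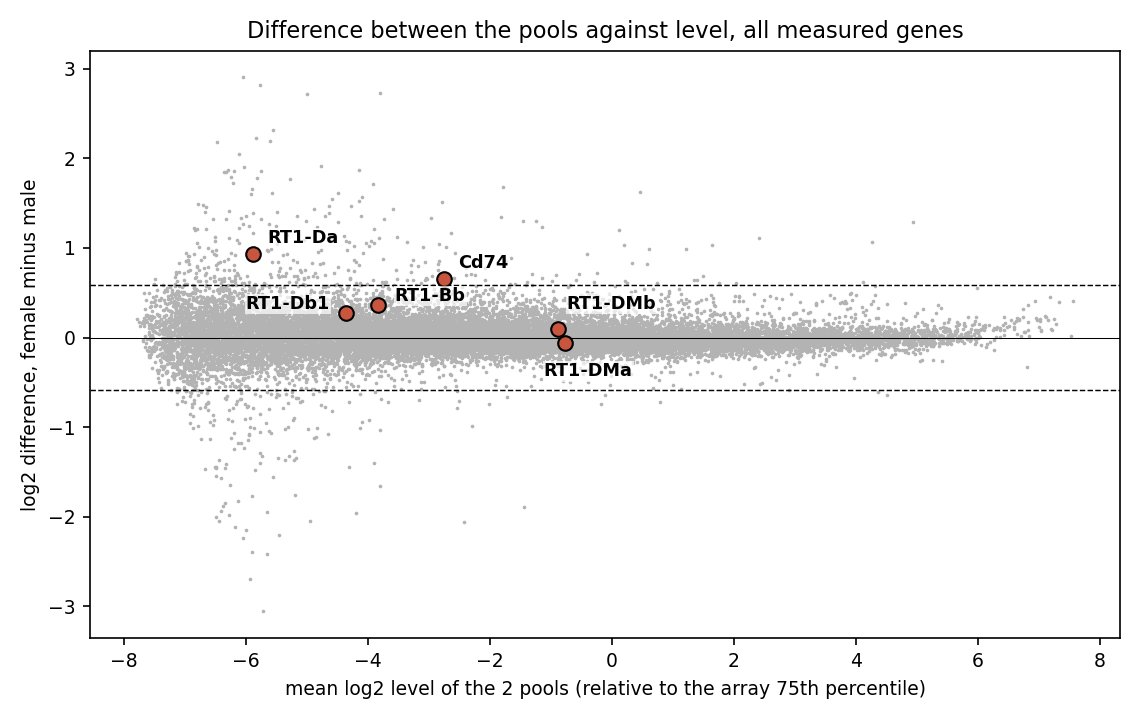
Difference between the pools (female minus male, log2) against the mean level of the 2 pools, for the 20655 genes measured in both. Grey points are all genes, red circles the 6 measured class II genes, and dashed lines mark 1.5-fold; RT1-Da and Cd74 lie above the upper line, and the scatter of all genes widens towards low levels, where RT1-Da lies.

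The promoters of these genes are known for a conserved module in which an X box, bound by the RFX complex, precedes a Y box, bound by NF-Y, and on which CIITA is assembled. RefSeq promoters of assembly GRCr8, from 250 bases before to 50 after the start of a gene, were matched for 6 of the 8 genes, all but RT1-DMb and Ciita. They were searched on both strands for ACNGATG, a core of the X box, and for ATTGG, the core of the Y box, motifs chosen after these sequences had been read. ACNGATG was in 10.2% and ATTGG in 37.5% of 33469 promoters of this length. An ATTGG that began 10 to 40 bases after an ACNGATG on the same strand was in 0.242%. That pair was in 4 of the 6, printed here with every match to either motif in capitals, CCAAT being ATTGG on the other strand.
RT1-Da promoter, chr20:4515165-4515464, plus strand: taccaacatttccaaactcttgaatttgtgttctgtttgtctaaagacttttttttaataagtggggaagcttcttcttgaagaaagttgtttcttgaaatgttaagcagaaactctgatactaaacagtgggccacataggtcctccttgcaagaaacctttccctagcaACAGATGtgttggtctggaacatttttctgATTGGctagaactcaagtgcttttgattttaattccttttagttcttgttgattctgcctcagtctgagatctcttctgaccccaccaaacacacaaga
RT1-Db1 promoter, chr20:4560113-4560412, minus strand: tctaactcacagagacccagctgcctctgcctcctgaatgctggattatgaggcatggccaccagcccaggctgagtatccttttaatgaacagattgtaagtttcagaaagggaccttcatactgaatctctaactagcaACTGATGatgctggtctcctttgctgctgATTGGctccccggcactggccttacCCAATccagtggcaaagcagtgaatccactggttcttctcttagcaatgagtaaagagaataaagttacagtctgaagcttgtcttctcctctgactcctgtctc
RT1-Bb promoter, chr20:4604069-4604368, minus strand: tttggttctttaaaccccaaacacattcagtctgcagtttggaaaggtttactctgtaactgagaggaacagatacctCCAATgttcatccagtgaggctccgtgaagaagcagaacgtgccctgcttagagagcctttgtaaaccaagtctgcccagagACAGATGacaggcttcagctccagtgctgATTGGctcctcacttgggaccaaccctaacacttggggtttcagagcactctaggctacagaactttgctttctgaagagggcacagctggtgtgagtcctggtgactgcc
RT1-DMa promoter, chr20:4712286-4712585, minus strand: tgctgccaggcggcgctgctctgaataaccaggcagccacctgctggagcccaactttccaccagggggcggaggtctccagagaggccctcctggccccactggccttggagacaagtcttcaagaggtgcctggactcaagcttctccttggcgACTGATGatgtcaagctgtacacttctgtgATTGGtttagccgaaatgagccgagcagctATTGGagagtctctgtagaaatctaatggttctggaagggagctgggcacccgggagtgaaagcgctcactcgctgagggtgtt
The motifs of the pair were 23 bases apart in RT1-Da and RT1-DMa and 22 in RT1-Db1 and RT1-Bb. ACNGATG began 79 bases before the start of RT1-Da, 109 before RT1-Db1, 90 before RT1-Bb and 94 before RT1-DMa. The promoters of RT1-Ba and Cd74 held 1 ATTGG each, that of Cd74 on the opposite strand, and no ACNGATG, which says only that these letters are not in this window. The pair was thus present in RT1-Da, which differed by 0.94 between the pools, and in RT1-DMa, which differed by -0.062.

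All of these genes but Cd74 and Ciita lie together on chromosome 20, where the class II probes span 262 kb of build rn4. From the RT1-Da probe it was 30.4 and 31.6 kb to the RT1-Db1 probes, 91.1 kb to the measured RT1-Bb probe, 189 kb to RT1-DMb and 203 kb to RT1-DMa. Between and within 60 kb of the class II probes, 9 probes of 8 other genes were measured. They had a median difference of -0.042 and ranged from -0.19 to 0.26, and 0 were at least 1.5-fold apart. Among them were genes that serve MHC class I, namely the peptide transporter genes Tap1 at 0.23, in a band, and Tap2 at 0.18, and the immunoproteasome genes Psmb8 at -0.047 and Psmb9 at 0.0069, in a band. RT1-Da stood furthest from 0 among the measured probes of the region. The first RT1-Db1 probe and RT1-Bb, both at 0.36, lay above the range of the other genes, and the second RT1-Db1 probe, RT1-DOb, RT1-DMb and RT1-DMa lay within it.

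**Figure D3:**
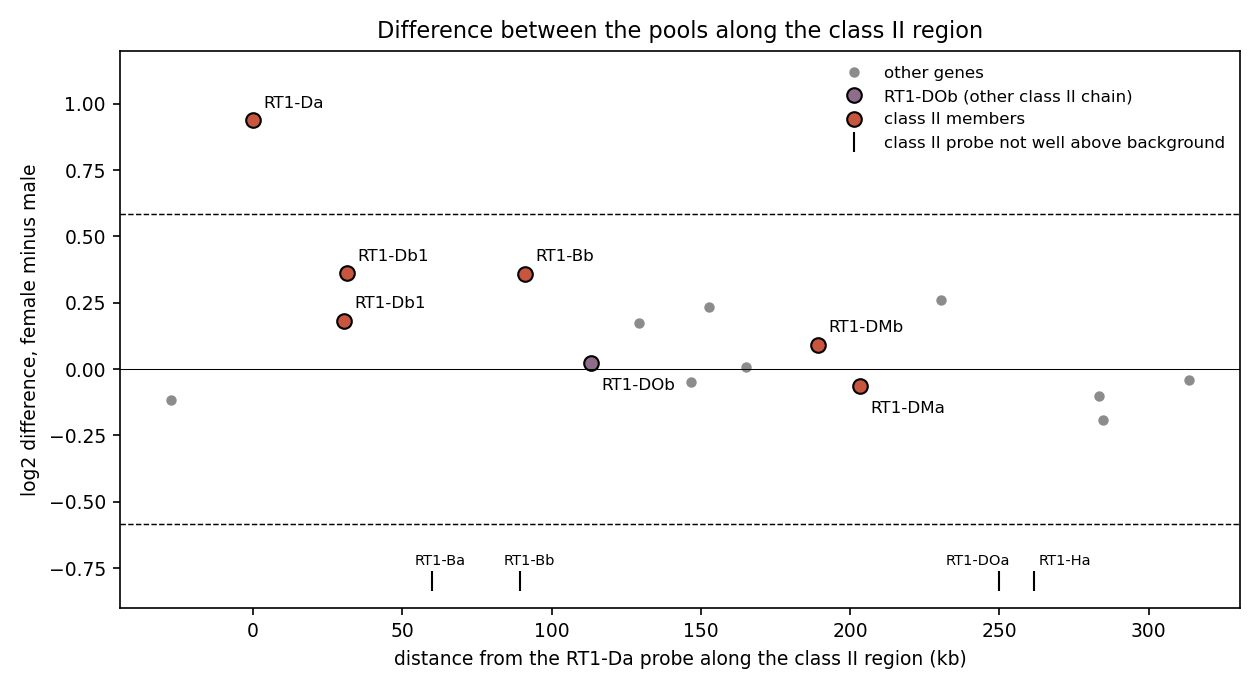
Difference between the pools (female minus male, log2) of the measured probes along the class II region of chromosome 20, by distance from the RT1-Da probe in kb. Red circles are the class II genes described, grey points other genes, ticks class II probes not well above background, and dashed lines 1.5-fold; RT1-Da, RT1-Db1 and RT1-Bb lie within 91.1 kb of one another and at 0.18 or higher.

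Lists of genes that act before or beside class II molecules had medians between -0.074 and 0.035, against 0.00011 for all genes. Of the 7 genes of the complex that reads the class II promoter, 2 had higher and 5 lower levels in the female pool; the median was -0.074. The largest differences were those of Nfya, a subunit of NF-Y, at 0.67 and Rfx5, the DNA-binding subunit of RFX, at -0.29, both from spots in bands, and of Rfxank, another RFX subunit, at -0.16.

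Interferon gamma is the classical inducer of Ciita. The interferon gene Ifng was not counted as measured after the outlier and background filters. Before them, 1 of its spots, in a band, was well above background in both pools. Of 9 measured genes of its signalling, 2 had higher and 7 lower levels in the female pool; the median was -0.025. Socs1, an inhibitor of the pathway, differed by -1.32 and the transcription factor gene Irf8 by -0.23, both in bands, and Socs3 by 0.16. Of 10 measured genes listed as induced by interferons, not all of them by interferon gamma above all, 5 were higher and 5 lower. Their median was -0.017. Gbp4 differed by -2.40 from a spot in a band, and the interferon-stimulated genes Isg15 and Mx1 by 0.27 and 0.23. The chemokine genes Cxcl9 and Cxcl11 and the enzyme gene Ido1 were in neither pool well above background, and the chemokine gene Cxcl10 was so in the female pool only.

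Peptides for class II molecules are made by endosomal proteases. All 14 genes of this list were measured, 6 higher and 8 lower in the female pool; the median was -0.025, and 0 were at least 1.5-fold apart. The protease inhibitor gene Cst3 differed by 0.18, the lysosomal membrane gene Lamp2 by 0.17 and the protease gene Lgmn by -0.14, in a band. Costimulation by antigen-presenting cells was represented by 6 measured genes, 3 higher and 3 lower, with a median of -0.0068 that was 0.16 without the bands. Tnfsf4 differed by -0.33, in a band, Cd274, which encodes PD-L1, by 0.27 and the adhesion molecule gene Icam1 by 0.19 over 10 spots, 5 of them in bands. Cd80 and Pdcd1lg2 were in neither pool well above background.

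MHC class I genes, which present peptides from inside the cell, had a median of 0.035 over 32 measured genes, 21 higher and 11 lower in the female pool. RT1-CE2, a class I heavy chain gene, differed by 0.86, the mean of probes at -0.05 and 1.76 that did not agree, 1 of them in a band. Tapbpl differed by 0.39 and the chaperone gene Canx by 0.38. The class I light chain gene B2m differed by -0.011.

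Markers of the cells that could carry class II molecules were set beside these values, with the lowest and the highest of most lists by level in the male pool. Of 7 measured border macrophage genes, 6 were higher in the female pool, against 50% of all measured genes. The 7 genes had a median of 0.27. They ran from Ms4a7, at -7.13 for the male pool and -7.37 for the female pool, to Folr2, at -2.51 and -2.44, both in bands. Their summed intensity, in percent of the array's 75th percentile, was 47.9 for the male pool and 54.5 for the female pool, and the defining marker Mrc1 was in neither pool well above background. Clec10a, a lectin gene chosen after its values were seen, differed by 0.66 over 10 spots, 3 of them in bands. Of 16 measured genes of microglia, the resident macrophages of brain tissue, 8 had higher and 8 lower levels; the median was 0.0047 and the summed intensity 2830 and 2878. They ran from Itgam, at -4.05 and -4.37, to C1qb, at 2.71 and 2.75. The largest microglial differences, picked after their values were seen, were Cd68 at 0.59, Cx3cr1 at 0.46 and Itgam at -0.32. None of these spots lay in a band, and Cd68 alone reached 1.5-fold. The part of these cells in the RT1-Da and Cd74 differences was not tested.

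Dendritic cell, B cell and T cell markers were mixed in direction. Of 7 measured genes listed for dendritic cells, not all of them particular to these cells, 4 were higher. The list had a median of 0.057 and a summed intensity of 812 and 757. Its genes ran from Siglec1, at -6.67 and -6.51 with 2 of 10 spots in bands, to Fscn1, at 2.99 and 2.88. Without Fscn1 the sums were 18.2 and 19.1. Of the other listed dendritic cell markers, Xcr1 and Clec9a were in neither pool well above background. No probe bore the names Itgax, Cd209 or Itgae. Of 3 measured B cell genes 1 was higher, with a median of -0.22 and a summed intensity of 31.5 and 32.1, the highest being Pax5, in a band, at -1.78 and -1.73. Without Pax5 the sums were 2.34 and 1.96. The B cell median was 0.047 with all probes and 0.11 with the corrected normexp fit. Of 6 measured T cell genes 3 were higher, with a median of -0.055 and a summed intensity of 22.6 and 22.4. The lowest was Cd3g, at -7.11 and -6.96 with 4 of 10 spots in bands. The highest was Cd3d, at -2.88 and -2.87 with 3 of 10 spots in bands. The T cell median was 0.056 without the bands and 0.15 with the corrected normexp fit. The B cell markers Cd79b, Ms4a1, Blk and Cd22 and the T cell markers Cd3e, Cd8a, Cd2 and Cd5 were in neither pool well above background.

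Among the tissue marker lists, that of the meninges, the coverings of the brain, had the median furthest from 0. All 15 meningeal fibroblast genes had higher levels in the female pool, against 50% of all measured genes, and 12 reached 1.5-fold, against 1.55%. The list was chosen with earlier results of these data known. Its median was 1.01, and 0.86 without the bands, and its summed intensity was 540 and 1021. Its genes ran from Lum, at -6.15 and -5.57, to Igf2, at 1.13 and 2.16, both in bands. Slc47a1, Slc22a6, Aldh1a2, Fmod and Omd also rested on single spots in bands. Of 11 blood cell genes 10 were lower, with a median of -0.34 and a summed intensity of 5529 and 4587, from Mpo, in a band, at -6.78 and -6.92, to Hbb-b1, at 5.39 and 5.13; that median was -0.16 with the corrected normexp fit. Choroid plexus genes had a median of 0.12, with 7 of 11 higher, from F5, at -7.51 and -7.39, to Enpp2, in a band, at 1.90 and 1.85. Endothelial genes had a median of -0.10, with 4 of 11 higher, from Tek, at -5.67 and -5.56, to Cldn5, at 0.87 and 0.83. Anterior pituitary genes had a median of -0.46, with 1 of 5 higher. They ran from Fshb, at -6.49 and -6.32, to Cga, in a band, at 1.15 and 0.43. Their median was -0.022 without the bands and -0.10 with the corrected normexp fit. Prl was well above background in the female pool only, and Gh1 in neither pool. The largest single differences in these lists, picked after their values were seen, were those of Kcnj13 of the choroid plexus, in a band, at 2.22 and Tshb of the pituitary at -2.05. The part that the share of meninges, blood or pituitary in the dissected tissue had in the class II differences was not tested.

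**Figure D4:**
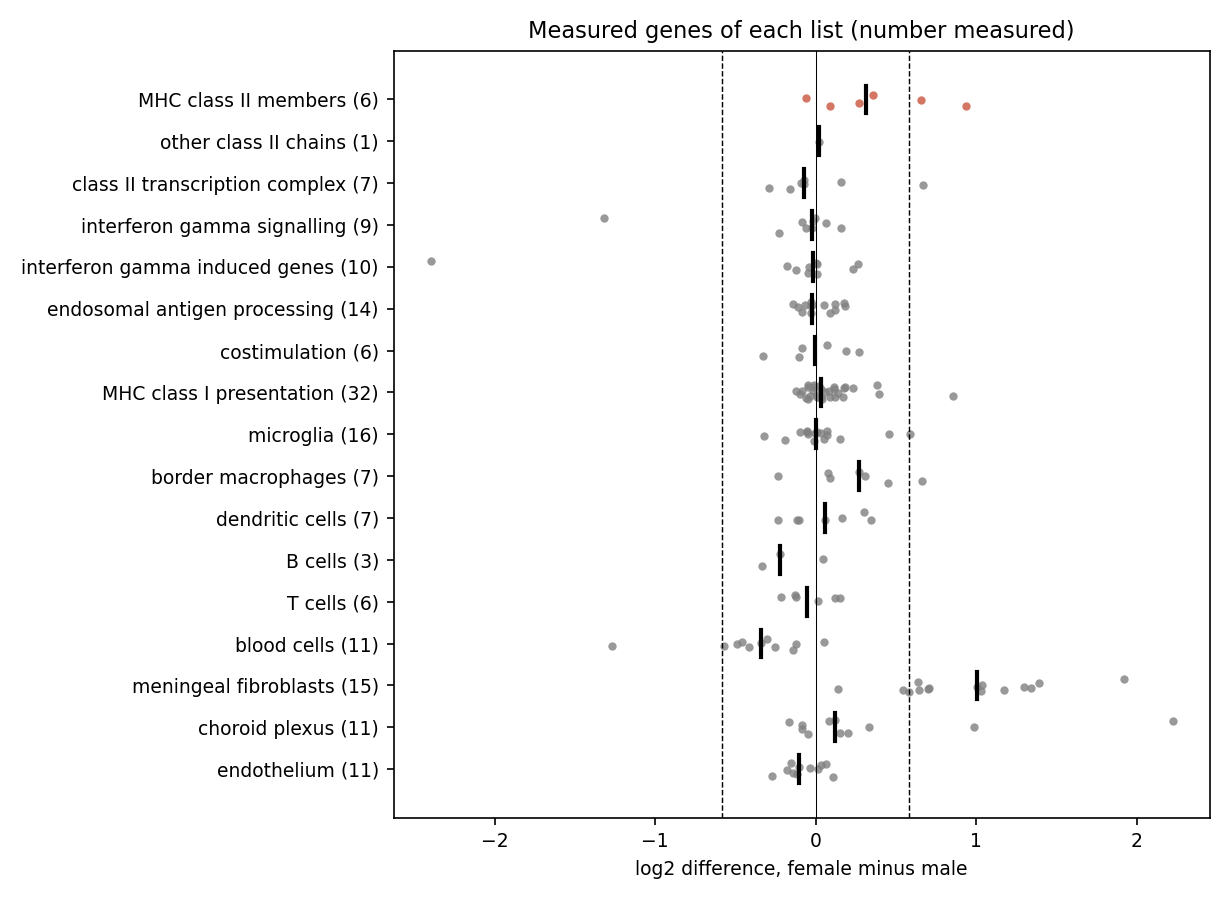
Difference between the pools (female minus male, log2) of every measured gene of each list shown, with the number measured in brackets. The lists of hypothalamic neurons and anterior pituitary are not shown. Points are genes, shifted up or down only for legibility, black bars list medians, and dashed lines 1.5-fold; the class II genes have a median of 0.32, border macrophage genes 0.27, meningeal fibroblast genes 1.01 and microglial genes 0.0047.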

How the data were processed

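RNA of 1 male and 1 female pool was measured on 1-colour Agilent arrays. The deposited scanner files held an intensity per spot, which the authors' software, Agilent Feature Extraction, had subtracted for background and a spatial trend, per the file headers, with probe positions in build rn4. The headers name version 10.7.3.1 and the submitters' processing notes 9.1, and which made the values was not settled. Spots flagged as outliers were left out, 286 on the male and 292 on the female array, 0 of them of the 8 class II genes. Spots of a probe, then measured probes of a gene, were averaged as levels, with a probe counted as measured if more than 50% of its spots passed the background limit in each pool. The technical SD is that of repeated spots within 0.5 log2 of the level, for 1 spot. It leaves out labelling, hybridisation and rats. A band is a window of 20 slide rows in which over 2% of repeated spots lay over 4 robust SD from their probe's median. The class II genes, the gene lists and the bands were chosen with earlier results of these data known. All 8 class II genes are named, with the 3 largest differences of each pathway list and the lowest and highest level of each cell marker list, of which 1 is not reported here. Other probes were named through RefSeq accessions (18758 of 30367), symbols (2050) or synonyms (202) of assembly GRCr8, and 9357 kept the name in the files. With 1 array per group no test was made. The number of arrays limits the precision. Calculations used Python 3.11.15, R 4.3.3 and limma 3.58.1 and were tested on simulated data. Alternatives varied scaling, background, filters, probe summary and slide position.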

Additional observations from a re-analysis of the deposited data

How the results depend on the processing

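Each group had 1 array, so no replicate could be left out. No paired analysis was possible because each group held a single pool. Over 12 alternatives other than the first normexp fit, the median difference of the class II genes counted lay between 0.25 and 0.36. Between 5 and 8 genes were counted, of which 4 to 7 were higher in the female pool and 1 to 3 at least 1.5-fold higher. The upper counts came from using all probes, which took in RT1-Ba and Ciita although neither was well above background. Over the 11 or 12 alternatives that gave a value, RT1-Da ran from 0.67 to 0.94, Cd74 from 0.59 to 0.66, RT1-Db1 from 0.20 to 0.36, RT1-Bb from 0.26 to 0.44, RT1-DMb from 0.024 to 0.091 and RT1-DMa from -0.13 to -0.027. Some of these alternatives could hardly move the class II genes. The deposited values were the same intensities divided by a constant for each array. Keeping flagged spots changed nothing, because no class II spot was flagged. Taking the brightest probe could alter RT1-Db1 alone. Normexp as planned gave a median of -0.70, 0 class II genes higher, 0 at 1.5-fold, RT1-Da at -1.95, Cd74 at -0.39, and over all genes 48 at least 1.5-fold higher in the female and 10077 in the male pool, where the values reported were 320 and 174. With 2 spots of aberrant background on the male array corrected, an alternative added after seeing the data, these counts were 174 and 37. Without the slide bands they were 146 and 39, and with all probes, whether or not above background, 1198 and 877, both with other genes tested than in the values reported. Without RT1-Da, also added after seeing the data, 1 class II gene was at 1.5-fold. List medians moved too. With the corrected normexp fit they were 0.18 for costimulation, 0.23 for dendritic, 0.11 for B, 0.15 for T and -0.16 for blood cells, 0.90 for meninges, 0.25 for choroid plexus and -0.10 for pituitary. Without the bands they were 0.16 for costimulation, 0.056 for T cells, 0.86 for meninges and -0.022 for pituitary. With all probes they were 0.13 for other class II chains, 0.11 for costimulation, 0.17 for dendritic and 0.047 for B cells and -0.022 for pituitary, and with the brightest probe per gene -0.065 for B cells. The cause was not tested. No other alternative moved a count of genes by over 1.5 times. Low signal limits RT1-Da, and RT1-Ba and Ciita were not well above background.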
